A study of Mus musculus with 2 samples.

Results

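The genes described here are 10 members of the tumour necrosis factor (TNF) superfamily, chosen by symbol from a list that leaves out Tnf itself. The list was drawn up with earlier results of these data known. All 10 were found among the 24346 deposited gene symbols. They are 4 ligand genes (Tnfsf9, Tnfsf10, Tnfsf13b and Tnfsf14) and 6 receptor genes (Tnfrsf1a, Tnfrsf1b, Tnfrsf9, Fas, Cd40 and Tnfrsf26). Their transcripts were read in sequenced RNA of Gr-1+ CD11b+ cells, which are myeloid cells such as neutrophils and monocytes, isolated from BALB/c mice. All mice were on 3% dextran sulfate sodium (DSS), which causes colitis when swallowed, for 6 days. The control library came from cells stimulated without ATPγS, and the other from cells given 100 μM ATPγS, a slowly hydrolysed form of ATP that activates P2 nucleotide receptors (the label writes the prefix of the unit in a symbol font). The labels give 2.5 hours of stimulation, and no genotype beyond the strain. Each group has 1 library, so there is no replicate check and no p-value, and each difference below is one between 2 libraries. The sources used here do not say how many animals were used for each.

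TNF superfamily ligands are mostly trimeric membrane proteins that can be shed, and they act by clustering receptors on the same or a neighbouring cell. Receptors with a cytoplasmic death domain, such as TNFR1 and Fas, can start caspase activation. Many receptors of the family, TNFR1 among them, signal through TRAF adaptors that lead to NF-κB and MAP kinase signalling. In myeloid cells the family is known for control of survival, of priming by TNF and of the exchange of signals with lymphocytes.

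Values are FPKM, fragments per length of transcript and per mapped fragments, so levels can be compared between genes. The libraries were shallow, with 2140000 fragments for the control and 2857000 for ATPγS as read from the smallest steps of the values. Transcripts abundant in neutrophils and also made by monocytes were high in both libraries, with S100a8 at 20604 and 22409.6 FPKM and S100a9 at 13776 and 14941.6 FPKM in control and ATPγS. Itgam, which encodes CD11b, stood at 112 and 144 FPKM. Ly6c2, of 1 of the antigens seen by Gr-1 antibodies, stood at 70.9 and 63.7 FPKM. The related gene Ly6c1, named after its values were seen, was more abundant, at 133 and 166 FPKM. The 95% counting interval of the ratio of ATPγS over control included 1 for Ly6c2 (0.704 to 1.15). That of Ly6c1 (1.05 to 1.47) lay above 1. Transcripts listed as markers of other cell types were read as well, and which cells made them was not tested. The summed level of 14 T and NK cell markers was 405 FPKM without and 235 FPKM with ATPγS, that of 12 B cell markers 1363 and 960, and that of 14 macrophage and dendritic cell markers 835 and 1030 FPKM. None of the markers in these lists was listed at 0. In such a bulk library, fewer cells of a type and less RNA per cell cannot be told apart.

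The 10 genes differed between the libraries by less than 2-fold, with Tnfsf13b, Tnfsf9 and Tnfrsf1b higher with ATPγS and Tnfrsf9, Fas, Cd40 and Tnfrsf1a lower beyond counting error. Of all genes averaging 5 FPKM or more with a known length, 21.6% had counting intervals above 1 and 33.2% below 1. The intervals of Cd40 and Tnfrsf1a included 1 after either rescaling of the libraries described below. None was at least 2-fold higher or lower on the scale of log2((FPKM + 1) / (FPKM + 1)), where 13.8% of the 18311 genes averaging 1 FPKM or more were that much higher with ATPγS and 9.91% that much lower. All 10 genes averaged 5 FPKM or more, and among the 9892 genes at that level the shares were 7.48% and 9.04%. All 6 receptor genes averaged more than 50 FPKM, where fewer genes were past 2-fold. Counting both directions, the share was 4.53% of genes averaging 50 to 100 FPKM and 5.52% of those averaging 100 FPKM or more. The median log2 ratio of the 10 genes was -0.13, beside -0.09 over all genes averaging 5 FPKM or more. Of the 10, 7 had a log2 ratio below 0, as did 56% of those genes, so the direction of the group was close to the background. The most abundant transcripts were Tnfrsf1b and Fas, which together made up 64.5% (control) and 67.6% (ATPγS) of the summed FPKM of the 10 genes. Among the 10, receptor genes far outweighed ligand genes. The summed levels were 1013 against 53.6 FPKM in the control and 983 against 63.6 FPKM with ATPγS. That holds for this list only, which leaves out Tnf. In control and ATPγS, the 14 other ligand genes summed to 1004 and 787 FPKM, and the 22 other receptor genes to 457 and 385 FPKM.

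**Figure D1:**
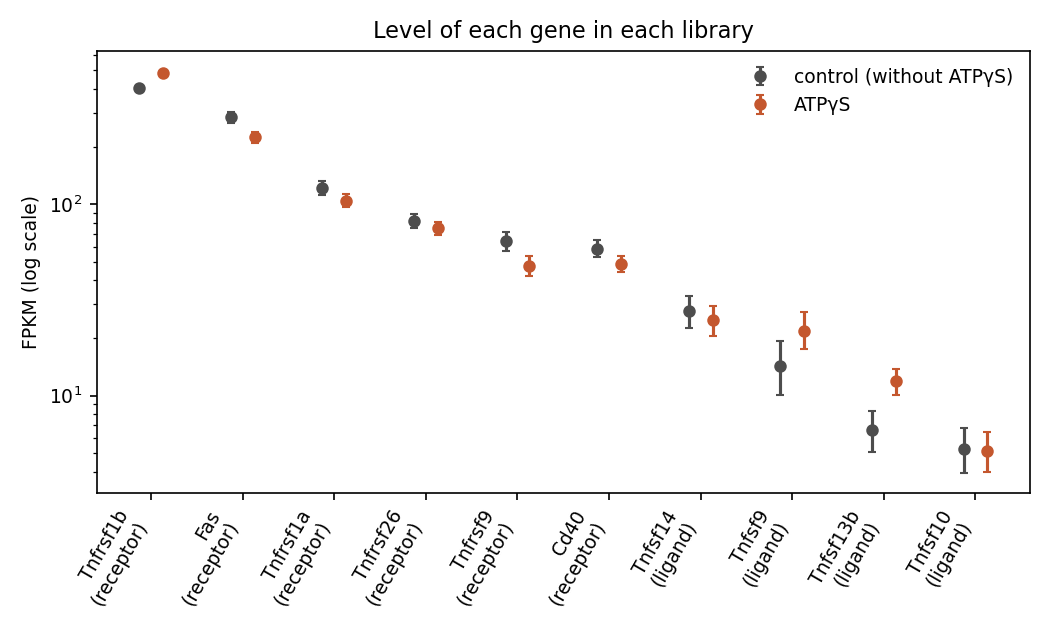
FPKM (log axis) of the 10 genes in the control library (grey) and the ATPγS library (orange), ordered by the control level. Points are single libraries and bars are 95% exact Poisson intervals, which cover counting error only. All 6 receptor genes lie above all 4 ligand genes in both libraries.

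Among the ligands, Tnfsf13b and Tnfsf9 were higher in the ATPγS library. Tnfsf13b (chromosome 8, 10006467 to 10039072, GRCm38, 7 exons) encodes BAFF, a survival factor of B cells that myeloid cells produce. It stood at 6.58 FPKM in the control and 11.9 FPKM with ATPγS, a ratio of 1.80 with a 95% exact binomial (Clopper-Pearson) counting interval of 1.35 to 2.45, from about 67 and 162 reads. This was the largest ratio among the 10 genes. With 1 FPKM added to each value its log2 ratio was 0.76, the 1 gene past 1.5-fold on that scale. That size was reached upwards by 15.7% of genes averaging 5 FPKM or more. Tnfsf9, with a plain ratio of 1.53, fell just short of it on that scale. Tnfsf9 (chromosome 17, 57105325 to 57107757, 3 exons) encodes 4-1BB ligand, a co-stimulator of T cells. Its levels were 14.2 and 21.9 FPKM, a ratio of 1.53 (1.05 to 2.34) from about 39 and 81 reads. The gene Gm11110 on the opposite strand overlaps Tnfsf9 and was listed at 3.57 and 0.667 FPKM. The library kit does not mark strand, so reads of such overlapping genes cannot be told apart.

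The other ligand genes had counting intervals that include no difference. Tnfsf14 (chromosome 17, 57189492 to 57194177, 4 exons) encodes LIGHT, a ligand of the lymphotoxin β receptor and of HVEM. It was the most abundant ligand gene of the 4 in both libraries, at 27.5 and 24.7 FPKM, with a ratio of 0.897 (0.687 to 1.16). Tnfsf10 (chromosome 3, 27317028 to 27342427, 5 exons) encodes TRAIL, a death-inducing ligand that interferons induce. It was the least abundant of the 10, at 5.28 and 5.15 FPKM, and its interval of 0.680 to 1.41 leaves room for a difference in either direction. In the control, the counting interval of Tnfsf9 lay below that of Tnfsf14, and with ATPγS the intervals of these neighbours in level overlapped. The opposite held for Tnfsf13b and Tnfsf10, whose intervals overlapped in the control and not with ATPγS.

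Among the receptors, Tnfrsf1b was the 1 gene higher with ATPγS. Tnfrsf1b (chromosome 4, 145213463 to 145246870, 10 exons) encodes TNFR2, the TNF receptor without a death domain that leukocytes express. It was the most abundant of the 10 genes in both libraries, at 404 FPKM in the control and 484 FPKM with ATPγS, above 99.1% and 99.3% of all genes. The ratio was 1.198 (1.147 to 1.252), from about 3298 and 5276 reads. Tnfrsf1a (chromosome 6, 125349362 to 125362484, 10 exons) encodes TNFR1, the death domain receptor through which soluble TNF mainly acts. It differed in the other direction, at 121 and 104 FPKM, a ratio of 0.862 (0.768 to 0.967) that included 1 once rescaled to equal sums (0.798 to 1.004). The ratio of Tnfrsf1b to Tnfrsf1a within a library, which no rescaling between libraries can move, was 3.34 in the control and 4.64 with ATPγS.

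Fas and Tnfrsf9 were lower in the ATPγS library, and Cd40 was lower before rescaling. Fas (chromosome 19, 34290666 to 34327772, 9 exons) encodes the death receptor CD95 and was the second most abundant gene of the group, at 284 FPKM in the control and 223 FPKM with ATPγS. It was 1.27-fold lower (ratio 0.786, interval 0.716 to 0.862), from about 901 and 945 reads. Tnfrsf9 (chromosome 4, 150914562 to 150946102, 8 exons) encodes 4-1BB, the receptor of the Tnfsf9 product, which appears on activated lymphocytes and some myeloid cells. It stood at 63.9 and 47.5 FPKM and was 1.35-fold lower (ratio 0.743, interval 0.630 to 0.879), the lowest ratio of the 10. Camta1 on the opposite strand overlaps Tnfrsf9 and was listed at 4.845 and 1.999 FPKM. Cd40 (chromosome 2, 165055627 to 165072948, 9 exons) encodes a co-stimulatory receptor of B cells, dendritic cells and macrophages. It stood at 58.5 and 49.0 FPKM, a ratio of 0.837 (0.726 to 0.965) that also included 1 once rescaled to equal sums (0.755 to 1.002). Tnfrsf9 and Cd40 could not be ordered by level in either library, since their counting intervals overlapped in both.

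Tnfrsf26 (chromosome 7, 143607659 to 143628722, 8 exons) encodes a mouse receptor of the family whose ligand is not established. It stood at 81.3 and 75.1 FPKM, with a ratio of 0.923 (0.822 to 1.04) that includes no difference. Its position is next to the related genes Tnfrsf22 and Tnfrsf23, and because the sources used here do not say how related sequences were counted, the split of reads between the 3 is uncertain. Tnfrsf22 was listed at 7.55 and 5.52 FPKM and Tnfrsf23 at 30.1 and 39.4 FPKM, so Tnfrsf26 was the most abundant of the 3 in both libraries.

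**Figure D2:**
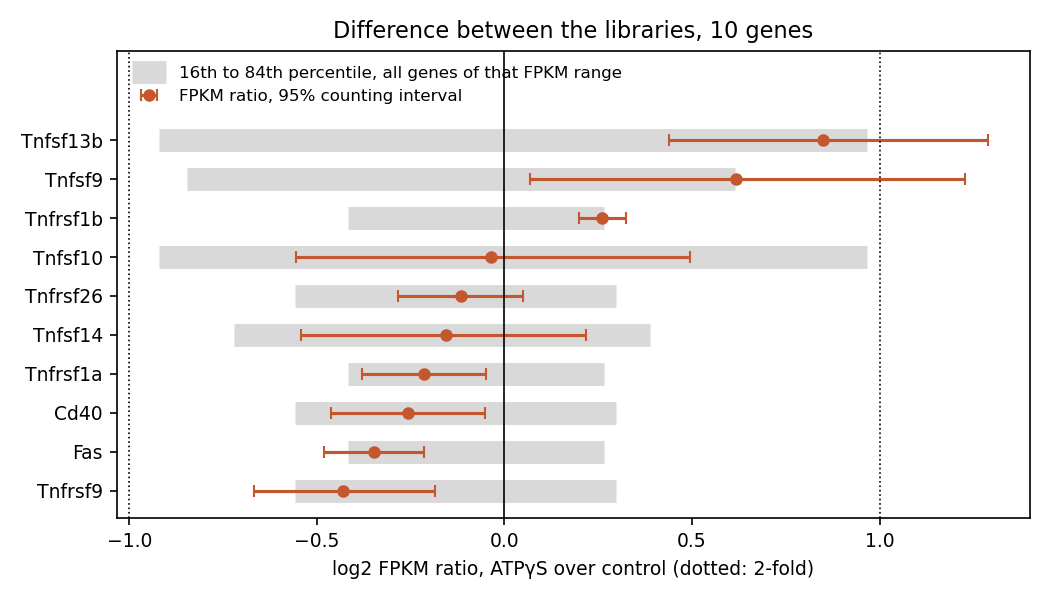
FPKM ratio of ATPγS over control for the 10 genes on a log2 axis. Orange bars are 95% counting intervals, and grey bars span the 16th to 84th percentile of all genes in the same range of mean FPKM. None of the 10 points reaches the dotted 2-fold lines, and Tnfsf9 is the 1 point beyond its grey bar.

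Most of these differences lay inside the central spread of genes of similar level, that of Tnfrsf1b close to its edge (1.198 against 1.202). Counting intervals lay above 1 for 3 of the 10 genes and below 1 for 4 of them, to be read against the shares over all genes given above. Only Tnfsf9 had a ratio outside the 16th to 84th percentile of genes of its level, and just so, at 1.534 against 1.531. Fas and Tnfrsf1b, among genes averaging 100 FPKM or more, lay inside a range of 0.749 to 1.202. Scaling also bears on the lower genes. Genes averaging 10 FPKM or more had a median log2 ratio of -0.13, and rescaling that median to 0 left 5 of the 10 genes below 0 and moved Tnfrsf26 to 0.02 and Tnfsf10 to 0.08. After that rescaling the intervals of Fas (0.784 to 0.944) and Tnfrsf9 (0.689 to 0.962) still lay below 1, and those of Tnfrsf1a (0.841 to 1.06) and Cd40 (0.795 to 1.06) did not. Both rescalings raise every ratio, so they can bring an interval to include 1 only for genes that were lower. For the genes that were higher they make the difference larger.

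Set side by side, some pairs of ligand and receptor genes gave different balances in the 2 libraries, and no interval was computed for these balances. Tnfrsf9 exceeded its ligand gene Tnfsf9 by 4.49 times in the control and 2.17 times with ATPγS, as the receptor gene was lower and the ligand gene higher. Fasl, of the Fas ligand made mainly by cytotoxic lymphocytes, was listed at 0 without and at 6.77 FPKM with ATPγS, a level far below that of Fas in that library. Cd40lg, of the CD40 ligand of activated T cells, stood at 8.73 and 3.66 FPKM, and Cd40 exceeded it by 6.70 and 13.4 times. Cd40lg rested on about 23 and 13 reads. The 2 receptor genes of LIGHT, Ltbr (13.5 and 18.7 FPKM) and Tnfrsf14 (6.93 and 4.79 FPKM), were both less abundant than Tnfsf14. The counting interval of Tnfrsf14 (0.333 to 1.48) includes no difference. Tnfrsf10b, of the TRAIL receptor, exceeded Tnfsf10 by 5.57 and 6.35 times, with 29.4 and 32.7 FPKM. The intervals of Tnfrsf10b (0.927 to 1.34) and of Tnfsf10 include no difference. Tnfrsf11b, of the decoy receptor osteoprotegerin that also binds TRAIL, was lower with ATPγS (19.2 and 6.97 FPKM). The 3 BAFF receptor genes, which B lineage cells express, did not share a direction. Tnfrsf13c stood at 26.1 and 15.0 FPKM, Tnfrsf13b at 2.03 and 5.56 FPKM, and Tnfrsf17 at 11.5 and 12.2 FPKM. The interval of Tnfrsf17 (0.570 to 1.96) includes no difference. The TNFR1 and TNFR2 ligand genes were Tnf, at 315 and 352 FPKM, and Lta, of lymphotoxin α, at 4.95 and 3.94 FPKM. Lta rested on about 15 and 16 reads, with an interval (0.370 to 1.73) that includes no difference. Tnf lay between Tnfrsf1a and Tnfrsf1b in both libraries.

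Several of these genes lie beside relatives on the chromosome, and their values are given without a test. On chromosome 17, Cd70 lies between Tnfsf9 and Tnfsf14 and was listed at 0 in both libraries, while Tnfsf9 and Tnfsf14 had log2 ratios of 0.58 and -0.15. On chromosome 6, Ltbr lies 35.5 kb from Tnfrsf1a and Cd27 a further 69.6 kb away, with log2 ratios of 0.45 and 0.56 beside -0.21 for Tnfrsf1a. The counting interval of Cd27 (0.991 to 2.30) includes no difference. Tnfrsf8, 20.3 kb from the abundant Tnfrsf1b on chromosome 4, stood at only 1.06 and 1.79 FPKM, and the 2 had log2 ratios of 0.44 and 0.26. The interval of Tnfrsf8 (0.651 to 4.26) includes no difference. Of neighbours elsewhere, Tnfrsf4 and Tnfrsf18 had log2 ratios of -1.11 and -0.91, and Tnfsf4 and Tnfsf18 had 1.37 and 1.04. Tnfsf4 rested on about 4 and 22 reads. Tnfsf18 averaged only 0.83 FPKM, from about 1 and 9 reads, and its interval (0.934 to 295) includes no difference.

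Promoter windows from RefSeq (GRCm38.p6, 250 bases before to 50 after each annotated start) were found for 7 of the 10 genes and not for Tnfsf9, Cd40 and Tnfrsf26. AP-1 and NF-κB are transcription factors that act downstream of this receptor family, so their motifs were searched, a choice made after the sequences were seen. The AP-1 motif TGANTCA, which reads the same on both strands, occurred in windows of 4 of the 7 genes, beside 8.97% of 27025 genes with such windows. In all 4 the match was TGAGTCA, shown in capitals in the following stretches, each 5′ to 3′ on the strand of its gene.
Fas, chr19:34290437-34290465, plus strand: ctgtgcagtggTGAGTCAgtgggtttccc
Tnfrsf9, chr4:150927973-150928001, plus strand: ccctgctcagtTGAGTCAcaggtcctgtg
Tnfsf13b, chr8:10006495-10006523, plus strand: cttgtctggagTGAGTCAgtctgaacccc
Tnfsf14, chr17:57194324-57194352, minus strand: tccatcccaccTGAGTCAcattttctgga
The 4 genes with this match differed in direction, with Tnfsf13b higher, Fas and Tnfrsf9 lower and the interval of Tnfsf14 including no difference. A loose form of the κB motif (GGG, any 5 bases, then CC, on either strand) was in windows of 5 of the 7 genes (Tnfrsf1a, Tnfrsf1b, Tnfsf14, Tnfrsf9 and Fas), beside 53.5% of all genes with windows. Such matches are letters in a window and say nothing of binding in these cells.

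The rest of the family was more uneven, mostly at low levels. Of 14 other ligand genes, 10 averaged 1 FPKM or more, of which 3 were past 2-fold upwards (Fasl, Tnfsf15 and Tnfsf4) and 1 downwards (Cd40lg), with a median log2 ratio of 0.51 beside 0.01 over all genes at that level and 0.19 over genes of 1 to 5 FPKM. The list's median turned to -0.39 among its members averaging 5 FPKM or more, and was 0.19 with no filter and 0.23 with a pseudocount of 5. The shares of all genes past 2-fold were the 13.8% and 9.91% given above. Tnfsf15, of TL1A, a ligand linked to gut inflammation, stood at 1.29 and 5.06 FPKM, and Tnfsf4, of OX40 ligand, at 1.04 and 4.27 FPKM. All 3 higher genes had a mean FPKM below 5, where 32.1% of genes at a mean FPKM of 1 to 5 passed 2-fold in either direction. The most abundant of all family genes in the control was Ltb, of lymphotoxin β, chosen after its values were seen. It stood at 660 and 393 FPKM and was 1.68-fold lower with ATPγS (interval of the ratio 0.553 to 0.640).

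Of 22 other receptor genes, 21 were measured at that minimum, with 3 past 2-fold upwards, 3 downwards and a median log2 ratio of 0.08. These counts are near the 13.8% and 9.91% of all genes, and the median turned to -0.32 among members averaging 5 FPKM or more. The higher ones were Edar (0.626 and 3.98 FPKM), of the ectodysplasin receptor, Tnfrsf19 (0.757 and 3.90 FPKM) and Tnfrsf13b. The lower ones were Tnfrsf11b, Tnfrsf11a (10.7 and 3.83 FPKM), which encodes RANK, the receptor of the osteoclast factor RANKL, and Tnfrsf4. Tnfrsf4 (47.7 and 21.6 FPKM) and its neighbour Tnfrsf18 (60.7 and 31.8 FPKM), named after their values were seen, encode OX40 and GITR, co-stimulatory receptors of T cells. Among T and NK cell markers, Cd2 stood at 62.6 and 33.8 FPKM and the granzyme gene Gzma at 45.8 and 66.1 FPKM. The T cell genes Cd3g (76.5 and 19.4 FPKM) and Lck (64.9 and 20.4 FPKM), named after their values were seen, were lower. Of the 14 T and NK cell markers, 6 were past 2-fold downwards and 1 upwards, and their part in the lower levels of Ltb, Cd40lg, Tnfrsf4 and Tnfrsf18 was not tested. Of 11 measured B cell markers, 2 were past 2-fold downwards and 1 upwards, and of 14 macrophage and dendritic cell markers 1 and 2, with Adgre1 at 149 and 215 FPKM and Cd68 at 375 and 411 FPKM. The part of these cells in the values of Cd40, Tnfsf13b and Tnfsf9 was not tested either.

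**Figure D3:**
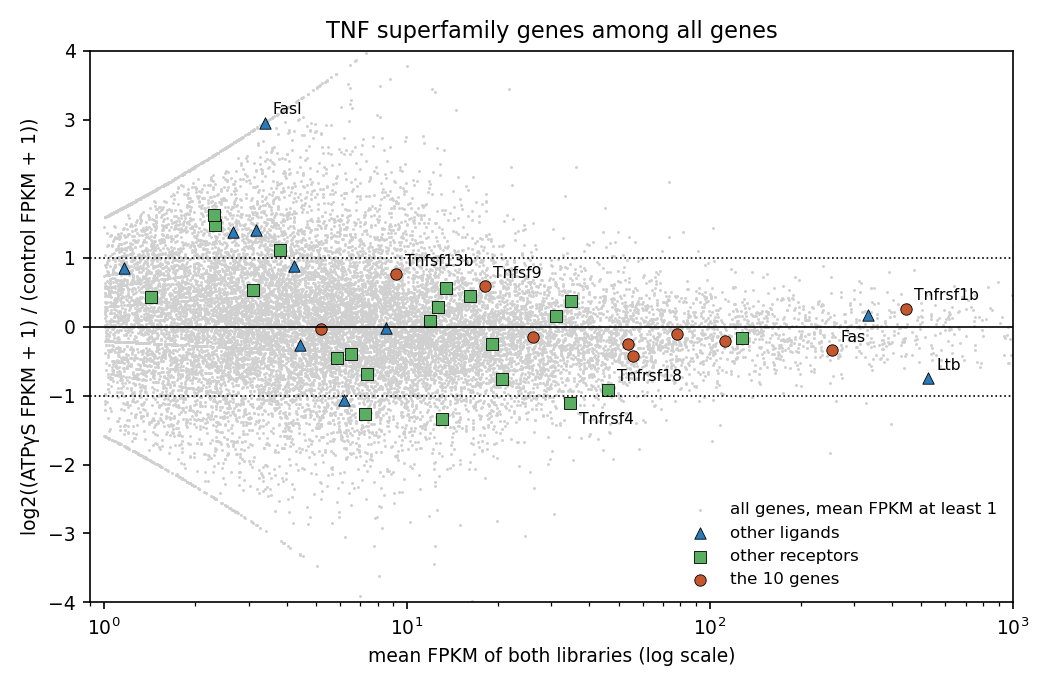
Log2 ratio (with 1 FPKM added to each value) against mean FPKM (log axis) for all genes averaging 1 FPKM or more (grey), the other ligand genes (triangles), the other receptor genes (squares) and the 10 genes (circles), with dotted lines at 2-fold. The 10 genes stay between the dotted lines, and the other family genes above the upper line all have a mean FPKM below 5; 112 genes lie outside the axes.

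Inside the cell, the receptors rely on shared adaptors and ubiquitin enzymes. Of 32 such genes, 2 were past 2-fold upwards, 3 downwards and 27 lay between, with a median log2 ratio of -0.24. Over all genes the shares were 13.8% and 9.91%, so the list as a whole held no more such genes than the background, and the genes below are described singly. Traf2, of the adaptor that links TNFR1, TNFR2, CD40 and 4-1BB to kinase signalling, was lowest, at 36.0 FPKM in the control and 10.6 FPKM with ATPγS. It was 3.40-fold lower, with an interval of the ratio of 0.217 to 0.393 from about 166 and 65 reads. The other 2 lower genes both encode parts of the linear ubiquitin chain assembly complex, which marks TNFR1 and CD40 complexes for NF-κB activation. Rbck1 stood at 44.1 and 16.1 FPKM (2.74-fold lower, interval of the ratio 0.289 to 0.462) and Sharpin at 43.1 and 16.6 FPKM (2.60-fold lower, 0.290 to 0.504). Rnf31, the catalytic subunit of the same complex, named after its values were seen, stood at 19.99 and 10.2 FPKM (1.96-fold lower, 0.390 to 0.658). Among the other TRAF genes, Traf1 (126 and 117 FPKM) and Traf3 (14.7 and 11.3 FPKM) differed less, and Traf6 was higher (7.15 and 10.7 FPKM).

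Upwards, Ripk3, of the kinase of necroptosis, stood at 24.3 and 52.8 FPKM (ratio 2.17, interval 1.73 to 2.77). Mlkl, of the pore-forming protein that this kinase activates, was lower at 4.62 and 2.18 FPKM, and Casp8, of the caspase that death receptors activate, stood at 37.5 and 20.6 FPKM. Tab3, of an adaptor of the kinase TAK1, stood at 2.06 and 5.37 FPKM. The abundant regulators differed less. Birc3, of the ubiquitin ligase cIAP2, stood at 169 and 144 FPKM, Cflar, of the caspase-8 inhibitor FLIP, at 132 and 146 FPKM, and Tnfaip3, of the NF-κB brake A20, at 279 and 349 FPKM. Mlkl, Casp8, Birc3, Cflar, Tnfaip3, Traf1, Traf3, Traf6 and Tab3 were named after their values were seen.

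**Figure D4:**
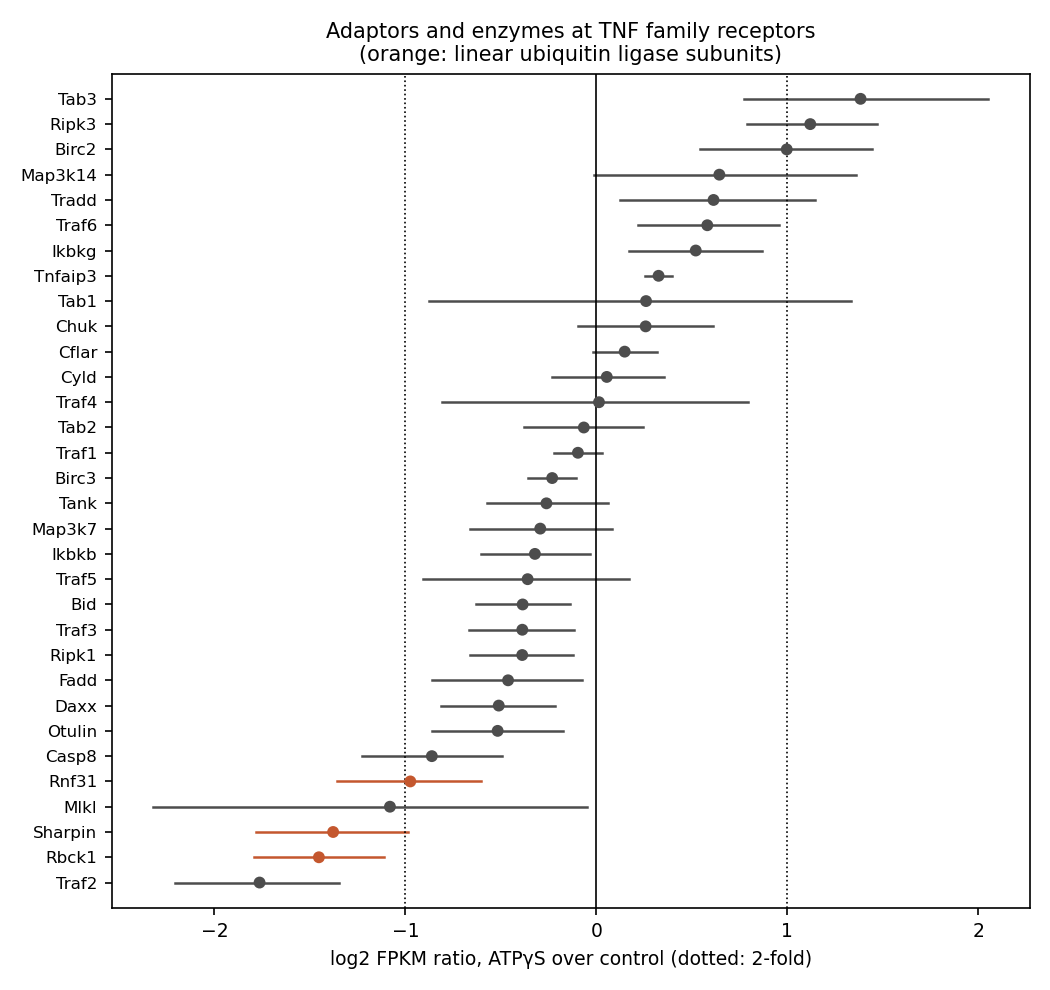
Log2 FPKM ratio of ATPγS over control for 32 adaptor and enzyme genes, with 95% counting intervals as bars and dotted lines at 2-fold. The 3 subunits of the linear ubiquitin chain assembly complex (orange) lie at the lower end with Traf2 and Mlkl, while Ripk3, Tab3 and Birc2 lie at the upper end.

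Downstream, none of 20 genes that TNF is known to induce passed 2-fold in either direction, and the median log2 ratio was -0.04, or 0.09 after rescaling to a median of 0. Few abundant genes did so, 5.52% of those averaging 100 FPKM or more counting both directions. Of the list, Nfkbie, Tnfaip8, Csf2, Vcam1 and Sele averaged less than that. Sele averaged 4.19 FPKM, and among genes of 1 to 5 FPKM the share was 32.1%. The members with the largest differences were Cxcl2, of a neutrophil chemokine (959 and 1452 FPKM), Tnfaip6, of a hyaluronan-binding protein (197 and 129 FPKM), Ccl2, of a monocyte chemokine (1517 and 1074 FPKM), and Sele, of E-selectin (4.96 and 3.41 FPKM). Equal numbers of these genes, 10 and 10, had log2 ratios above and below 0.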

How the data were processed

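The authors deposited 1 table of FPKM values per library, with 1 value per gene symbol. The submitters' processing notes name Cufflinks 2.2.1, TopHat2 2.0.13, SAMtools 0.1.19, Bowtie2 2.2.3 and the build mm10, and neither an annotation nor options. Per the labels' protocols, cDNA was made with SMART-Seq HT and libraries with Nextera, which does not mark strand. FPKM are not counts, so no count test was run. Depth was read from the products of FPKM and coding length for 1289 vomeronasal and olfactory receptor genes with 1 coding exon (GENCODE M21 on GRCm38, which is mm10). Many depths were tried, and the one kept made the largest share of values up to 10 reads whole to 0.05 reads. That share was 70.9% (control) and 70.1% (ATPγS). Chance gives 10% at a single depth fixed in advance, and the chance level for the largest of many shares was not computed. Reads per gene used the transcript with the longest coding sequence and are approximate. Log2 ratios had a pseudocount of 1 FPKM, and folds and ratios printed with a gene have none. Genes averaging 1 FPKM or more entered the counts, and a ratio of at least 2-fold was counted. Intervals (95%) cover counting error only, since PCR copies cannot be told from independent molecules. The genes named were the 10 members, both genes of each ligand and receptor pair, the 4 largest absolute log2 ratios of each family list, the 2 most abundant genes of each marker list, and others said to be named after their values were seen. The members and lists were chosen with earlier results of these data known. Ly6g and Trbc2 were not analysed here. The lists of neutrophil (11 genes, summed FPKM 38686 and 41982 in control and ATPγS), monocyte (10 genes, 553 and 573; most abundant Treml4, 198 and 239, and Ms4a6c, 146 and 141) and epithelial, endothelial and stromal markers (10 genes, 816 and 793; Dcn, 605 and 587, and Col1a2, 50.9 and 63.4) had 0 genes past 2-fold in either direction. Of all genes averaging 1 FPKM or more, 13.8% were that much higher and 9.91% that much lower. Among genes averaging 100 FPKM or more, the share was 5.52% counting both directions, so a count of 0 in lists with abundant genes says little. The most abundant B cell markers were Jchain (930 and 643 FPKM) and Cd79a (133 and 85.9 FPKM). Only the count of genes past 2-fold was tested on simulated data, in which counting was the only error. Computation used Python 3.11.15, pandas 2.3.3, NumPy 2.4.6, SciPy 1.17.1 and matplotlib 3.10.9.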

Additional observations from a re-analysis of the deposited data

How the results depend on the processing

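The count of 0 of the 10 genes past 2-fold in either direction was the same for pseudocounts of 0.1 and 5 FPKM and both rescalings. The filters and a 3-fold threshold have no way to change it. At 1.5-fold, 1 was higher. Their median log2 ratio ranged from -0.14 to -0.0046, their mean was 0.01, and Tnfrsf26 and Tnfsf10 changed sign when rescaled to a median of 0, where Tnfrsf1b moved to 0.39. Rescaling to equal sums, or to a median of 0, left 2 of 4 counting intervals below 1. Other transcript lengths, chosen after seeing the data, left 3 or 4.

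The other lists moved more. The median log2 ratio of other ligands was 0.19 with no filter and 0.23 with a pseudocount of 5, and turned to -0.39 at a mean FPKM of at least 5. With a pseudocount of 0.1, 5 other ligands were higher. With a pseudocount of 5, counts of higher and lower genes were 1 and 0 for other ligands, 0 and 1 for other receptors and 561 and 461 for all genes, and 0 adaptors were higher. Rescaled to a median of 0, 0 other ligands were lower. At a mean FPKM of at least 5, 0 other ligands, 0 other receptors and 1 adaptor were higher, with 740 and 894 genes higher and lower among all genes. At 1.5-fold the higher and lower counts were 5 and 2 for other ligands, 1 and 1 for TNF-induced genes and 4408 and 3782 for all genes, with 6 other receptors and 6 adaptors lower. At 3-fold they were 1 and 0 for other ligands, 1 and 0 for other receptors, 0 and 1 for adaptors and 1154 and 611 for all genes. Beyond what each setting's construction fixes, the cause was not tested.

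No paired analysis was possible because each group has 1 library, and no library was left out.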
